A study of Homo sapiens with 16 samples.

Results

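The unfolded protein response genes followed here are HSPA5, HSP90B1, CALR, PDIA4, PDIA6, DNAJB9, HERPUD1, XBP1, SEL1L and SDF2L1, 10 of the 18190 gene symbols on the array table. They were chosen by symbol, with the detected probe of highest mean signal for each gene. Every member turned out to have 1 probe, and all 10 passed the detection filter, as did 11565 symbols in all. The cells were MCF10HER2 cells, a line made from the immortal, nontransformed human mammary epithelial line MCF10A by transduction with the receptor tyrosine kinase HER2. CP724,714, a small molecule that inhibits the HER2 kinase, was added at 1 µM to parallel cultures grown in serum-free medium with EGF and hydrocortisone and without insulin, and RNA was taken every 3 h. The untreated group is 1 culture at 0 h, and the treated group is 15 cultures, 1 at each time from 3 to 45 h. Without replicates at any time point, the error of a gene was taken from how far its arrays lay off a fitted course. Fresh medium was given together with the inhibitor, and no culture without inhibitor was followed later than 0 h, so that effects of CP724,714, fresh medium and time in culture cannot be told apart. In a whole culture, a loss of cells that express a gene and less RNA of that gene per cell cannot be told apart either.

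The unfolded protein response is the program by which cells adjust the endoplasmic reticulum (ER) to its load of newly made secreted and membrane proteins. Sensors in the ER membrane, IRE1 (ERN1), PERK (EIF2AK3) and ATF6, lead to the transcription factors XBP1, ATF4 and cleaved ATF6, which raise chaperones, disulfide isomerases and the machinery that exports misfolded proteins for degradation. ATF4 is also the transcription factor of the amino acid response, which controls amino acid transporters, biosynthetic enzymes and aminoacyl-tRNA synthetases and is driven by the kinase GCN2 as well as by PERK. The question here was whether the ER genes fell under HER2 inhibition as the genes of the amino acid response did.

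Several members carry the DNA element through which ATF6 is known to act, and these sequences are shown as a description. The members were chosen as known genes of this response, so that a high share with its known element is not an independent finding. The RefSeq promoter windows (GRCh38.p14) run from 250 bases before to 50 bases after the annotated start of a gene, and all 10 members had a window. PDIA4, PDIA6 and XBP1 had 2 windows each. Both strands were searched for the ER stress response element, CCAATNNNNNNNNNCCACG, whose CCAAT end is a known NF-Y site. It was found in 5 of the 10 members, against 0.0769% of all 35116 windows and 0.127% of the 10241 windows of tested genes. Here and below a gene of a list was counted if any of its windows matched, whereas the percentages are of single windows. In PDIA6 and XBP1 the match was in 1 of the 2 windows. In the lines below the fixed letters of the element are in capitals, and a site that reads CGTGG before ATTGG is the element on the opposite strand.
HSPA5, chr9:125241381-125241419, minus strand: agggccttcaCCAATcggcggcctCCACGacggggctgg
HSP90B1, farther site, chr12:103930206-103930244, plus strand: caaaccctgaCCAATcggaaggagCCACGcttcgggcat
HSP90B1, nearer site, chr12:103930311-103930349, plus strand: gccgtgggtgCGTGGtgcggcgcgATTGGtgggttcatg
CALR, chr19:12938374-12938412, plus strand: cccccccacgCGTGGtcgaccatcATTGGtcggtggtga
PDIA6, chr2:10812843-10812881, minus strand: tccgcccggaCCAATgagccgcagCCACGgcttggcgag
XBP1, chr22:28800593-28800631, minus strand: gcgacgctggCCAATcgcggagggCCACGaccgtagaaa
Counted from the annotated start, the element spans positions -66 to -48 in HSPA5 and -52 to -34 in XBP1. HSP90B1 had 2 copies, on opposite strands. The shorter ER stress response element II, ATTGGNCCACG, was found in 2 other members, against 0.0541% of all windows.
HERPUD1, chr16:56932015-56932045, plus strand: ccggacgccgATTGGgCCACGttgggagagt
SDF2L1, chr22:21642104-21642134, plus strand: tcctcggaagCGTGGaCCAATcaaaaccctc
Neither element was found in PDIA4, DNAJB9 or SEL1L, and the core of the unfolded protein response element, TGACGTGG, was in none of the 10 members (0.729% of all windows). The core of the C/EBP-ATF response element, TGATGNAA, through which ATF4 is known to act, was in 1 member, HERPUD1, against 3.62% of all windows and 13 of the 29 genes of the amino acid response list with a window. A match of letters is a description of these windows and not a measured binding site.

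The 250 bases before the start of HSPA5, at chr9:125241344-125241593 on the minus strand, are given as the promoter of the best known target of the response. The fixed letters of the exact match are in capitals, and near matches to the element were not searched for.
HSPA5 upstream: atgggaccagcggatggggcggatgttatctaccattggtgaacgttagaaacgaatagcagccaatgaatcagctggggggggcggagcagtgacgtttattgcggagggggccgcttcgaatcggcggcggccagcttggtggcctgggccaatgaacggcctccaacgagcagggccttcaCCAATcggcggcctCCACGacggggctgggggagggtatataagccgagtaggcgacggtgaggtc

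On the log2 scale of the normalized signal, XBP1, DNAJB9, HERPUD1 and HSPA5 were high at 0 and 3 h, dropped between 3 and 9 h and remained low up to 45 h. All tested probes also moved most on the early arrays. Their root mean square step was 0.31, 0.29, 0.23 and 0.33 to the 3, 6, 9 and 12 h arrays. On later arrays it was 0.09 to 0.21. Values in this and the following paragraphs are log2 levels of 1 probe on 1 array unless a fold or a difference is named. XBP1, the transcription factor made active by the IRE1 sensor, measured 11.12, 11.62, 10.00 and 9.03 on the arrays of 0, 3, 6 and 9 h. From 12 to 45 h it lay between 8.90 and 9.34, with a mean of 9.16 ± 0.15 (SD over the 12 arrays). Both early arrays were above every later value, and the level at 3 h was 5.99 times that at 9 h. The XBP1 probe does not tell the spliced from the unspliced mRNA as used here.

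DNAJB9 (ERdj4), a cochaperone of HSPA5 and a known target of XBP1, had the largest drop from 3 to 9 h among the members with quantile normalization, whereas with median scaling HERPUD1 (-2.39) and XBP1 (-2.33) dropped slightly more than DNAJB9 (-2.32) on the log2 scale. It was at 11.01 without inhibitor, at 11.21 after 3 h, at 8.90 after 6 h and at 8.41 after 9 h, and the level at 3 h was 6.99 times that at 9 h. From 12 to 45 h its mean was 8.79 ± 0.10 (SD, 12 arrays), and no array of that time exceeded 8.98. The untreated array stood 4.64-fold above that mean.

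HERPUD1, a membrane protein that assembles the ubiquitin ligase complex of ER-associated degradation, had levels of 11.63, 11.70, 9.56 and 9.09 on the first arrays of the course, from 0 to 9 h. It then came back in part, to 9.98 at 12 h, and had a mean of 9.98 ± 0.21 (SD, 12 arrays) from 12 to 45 h. Its highest value in that time, 10.34 at 39 h, was still below both early arrays. The level at 3 h was 6.10 times that at 9 h, and the untreated array was 3.14-fold above the mean of 12 to 45 h.

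SEL1L, the adaptor of the same ligase complex, showed no such course. Its probe was dim, detected on 10 of the 16 arrays, and its level lay between 7.93 and 8.04 on all of them. The spline fit did not call it (adjusted p = 0.365, limma), and a change of the size seen in HERPUD1 would not have been measurable downward from this level.

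HSPA5 (BiP), the ER member of the HSP70 family and the chaperone that binds the sensors at rest, measured 10.69, 11.41, 10.51 and 9.32 on the arrays of 0, 3, 6 and 9 h. Its steps were -0.90 between 3 and 6 h and -1.19 between 6 and 9 h. The larger of these came 1 time point later than in XBP1, DNAJB9 and HERPUD1, which fell most between 3 and 6 h. This order rests on single arrays, and the 9 h array had the dimmest signals of all. The folds of 3 h over 9 h rest on the same 9 h array. From 12 to 45 h HSPA5 lay between 8.95 and 9.48, with a mean of 9.22 ± 0.14 (SD, 12 arrays), and the untreated array was 2.78-fold above that mean. The 3 h array was the highest of all 16 and 4.24 times the 9 h array.

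Whether these genes rose at 3 h before they dropped depends on how the arrays were scaled. With quantile normalization the 3 h array exceeded the 0 h array by 0.72 in HSPA5, 0.50 in XBP1, 0.20 in DNAJB9 and 0.07 in HERPUD1. With median scaling the differences were 0.06 in HSPA5, -0.16 in XBP1, -0.47 in DNAJB9 and -0.64 in HERPUD1. Median scaling moved the median difference of the 2912 brightest probes (mean log2 over 10) at this step by about as much, to -0.66, and that of all tested probes to -0.11, so that no direction is given for 0 to 3 h. The drop from 3 to 9 h held under both, with differences of -1.87 in HSPA5, -2.32 in DNAJB9, -2.39 in HERPUD1 and -2.33 in XBP1 under median scaling.

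**Figure D1:**
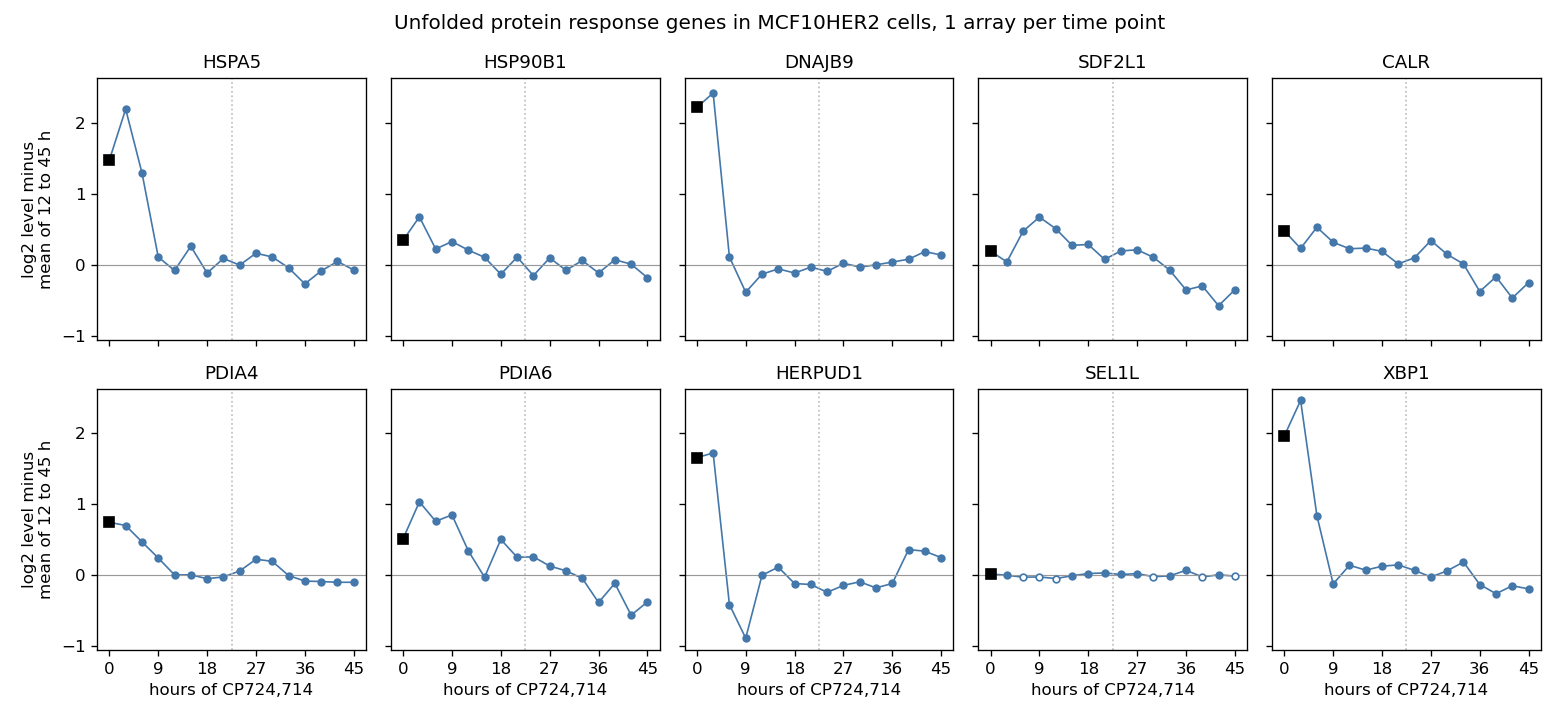
Log2 level of each member minus its own mean over 12 to 45 h (vertical axis) against hours of CP724,714 (horizontal axis), 1 point per array. The black square is the untreated array, open points are arrays on which the probe was not detected, and the dotted line marks the change of array background between 21 and 24 h. XBP1, DNAJB9, HERPUD1 and HSPA5 stand 1.48 to 2.21 above the line at 0 h and reach it by 9 to 12 h. PDIA4 comes down more slowly with the quantile normalization drawn here, and CALR, PDIA6 and SDF2L1 lie lowest from 36 h on.

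With quantile normalization the other chaperones moved less and more slowly. HSP90B1 (GRP94), the ER member of the HSP90 family, measured 13.15, 13.48, 13.03 and 13.13 from 0 to 9 h, and had a mean of 12.80 ± 0.13 (SD, 12 arrays) from 12 to 45 h. Its 0 and 3 h arrays were above every array from 12 to 45 h, but by little, as the highest of those was 13.01. Under median scaling the 3 h array was at -0.33 relative to 0 h, near the later mean of -0.43. The untreated array was 1.27-fold above the later mean.

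CALR (calreticulin), the calcium-binding lectin that retains unfinished glycoproteins, measured 12.37, 12.12, 12.42 and 12.21 from 0 to 9 h, and the 0 and 3 h arrays overlapped with the later arrays. Its mean was 12.06 ± 0.10 (SD, 4 arrays) from 12 to 21 h, 12.04 ± 0.14 from 24 to 33 h and 11.58 ± 0.13 from 36 to 45 h. The largest step down, 0.39, was between 33 and 36 h.

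SDF2L1, a subunit of the HSPA5 chaperone complex, was the one member that was higher at 9 h (12.31) than at both 0 h (11.83) and 3 h (11.67). Under median scaling the 9 h array again exceeded the 3 h array, by 0.78, but the 3 h array was then at -0.84 relative to 0 h, so that the rise over 0 h was not seen. Its mean then went from 11.92 ± 0.18 (SD, 4 arrays) at 12 to 21 h through 11.74 ± 0.13 at 24 to 33 h to 11.24 ± 0.12 at 36 to 45 h. In CALR and SDF2L1 alike, the 4 arrays from 36 to 45 h were the lowest of the 16.

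The protein disulfide isomerases, which form and exchange the disulfide bonds of ER proteins, parted from each other. On the quantile-normalized arrays from 0 to 12 h PDIA4 (ERp72) measured 11.80, 11.75, 11.52, 11.30 and 11.06, a stepwise decline. Its mean from 12 to 45 h was 11.06 ± 0.11 (SD, 12 arrays). The 3 h array was already at -0.72 relative to 0 h under median scaling, against -0.74 for the mean of 12 to 45 h. The stepwise shape thus depends on the scaling. PDIA6 (P5) measured 10.61, 11.13, 10.86 and 10.95 from 0 to 9 h, without a drop in that time. Its mean was 10.37 ± 0.22 (SD, 4 arrays) from 12 to 21 h, 10.20 ± 0.13 from 24 to 33 h and 9.74 ± 0.18 from 36 to 45 h. PDIA4 thus had its lower level by 12 h, whereas PDIA6 was 0.63 lower at 36 to 45 h than at 12 to 21 h.

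Fits across all 12321 tested probes were read for the members, with Benjamini-Hochberg adjustment over all of them. In the spline fit 9 of the 10 members were time-dependent, all but SEL1L, where 41.9% of all tested probes were. Adjusted p (limma) ranged from 4.51e-05 in XBP1 to 0.00809 in HSP90B1 among the 9. A straight line over the 45 h fell in 7 members and rose in 0, where 11.5% of all tested probes fell. The log2 change over 45 h was -1.73 (SE 0.42, adjusted p = 0.00502) in XBP1, -1.53 (SE 0.37, adjusted p = 0.00588) in HSPA5 and -1.28 (SE 0.18, adjusted p = 5.22e-05) in PDIA6. The other calls were SDF2L1 at -0.86, CALR at -0.78, PDIA4 at -0.67 and HSP90B1 at -0.52. DNAJB9 at -1.22 (adjusted p = 0.101) and HERPUD1 at -0.58 (adjusted p = 0.435) were not called by a straight line, and without the 9 h array DNAJB9 was, at -1.45 (adjusted p = 0.0460). The linear calls depend on the scaling, the array weights and the arrays fitted. With array weights, which give less weight to more variable arrays, HSPA5 was at -0.50 (adjusted p = 0.0839) and PDIA4 at -0.29 (adjusted p = 0.0902), and neither was called. In the 12 to 45 h arrays alone, an alternative chosen after seeing the data, HSPA5 was at -0.19 (adjusted p = 0.391) and PDIA4 at -0.15 (adjusted p = 0.459). With the array batch as a block the changes of HSPA5 (-2.36, adjusted p = 0.0682) and XBP1 (-2.69, adjusted p = 0.0601) were larger but not called. With median scaling 3 members fell, HSPA5, PDIA6 and XBP1, and over all tested genes the split of 1544 rising and 1319 falling became 2348 rising and 511 falling.

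Against the untreated array the treated arrays were lower in 5 members and higher in 0, where 10.3% of all tested probes were lower. DNAJB9 was lower, at -2.07 on the log2 scale (SE 0.41, adjusted p = 0.00182, limma), XBP1 at -1.75 (SE 0.34, adjusted p = 0.00157), HERPUD1 at -1.62 (SE 0.45, adjusted p = 0.0165), HSPA5 at -1.24 (SE 0.28, adjusted p = 0.00512) and PDIA4 at -0.65 (SE 0.13, adjusted p = 0.00207). The same 5 genes were called when any of the 15 treated arrays was left out and with median scaling, all against the same untreated array. The values of the other members were -0.41 in CALR (adjusted p = 0.0893), -0.34 in PDIA6 (adjusted p = 0.253), -0.26 in HSP90B1 (adjusted p = 0.166) and -0.11 in SDF2L1 (adjusted p = 0.719). This test rests on 1 untreated array, which was taken to vary like the others. At the threshold of the study, a change of 1.7-fold at any time point, here against 0 h, 8 members were lower on 1 or more arrays and 0 were higher, where 9.47% of all tested probes were lower and 10.9% higher. HSP90B1 and SEL1L did not reach it.

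The arrays parted at 24 h by their background, which was 135.9 to 148.9 on the 8 arrays from 0 to 21 h and 164.5 to 173.9 on the 8 arrays from 24 to 45 h. The labels name no chip, so that the groups are called array batches here, and the slope of each member was fitted within each batch. The arrays detected 10363 to 11436 of 20589 probes each, and those of 9 and 18 h had the dimmest signals. At their brightest probes the basal epithelial markers KRT5, KRT17, CDH3 and EGFR were detected on all arrays and KRT14 on 1. CDH1 was detected on 15 arrays and TP63 on 14, both dim, with intensities of 177.4 to 339.2 and 139.2 to 321.3. Another EGFR probe was detected on 0 arrays. Of the markers of other cell types, 7 of 10 were detected on fewer than 3 arrays. The leukocyte marker PTPRC was detected on 7 arrays at its brightest probe and on 0 at its other probes. PECAM1 and DCN, markers of endothelial cells and fibroblasts, were detected on all 16 arrays, DCN at its brightest probe (10 and 2 arrays at its other probes). The fitted treated minus untreated differences were 0.16 in PECAM1 (adjusted p = 0.0404, limma) and 0.11 in DCN (adjusted p = 0.276). Their part in the results was not tested.

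From 0 to 21 h 6 members fell, where 15.6% of all tested probes did. The log2 change over the 21 h was -2.39 (SE 0.53) in DNAJB9, -2.20 (SE 0.43) in XBP1, -2.04 (SE 0.37) in HSPA5, -1.60 (SE 0.54) in HERPUD1, -0.90 (SE 0.15) in PDIA4 and -0.51 (SE 0.15) in HSP90B1. HSPA5, DNAJB9, XBP1 and PDIA4 were called with any single array left out. HERPUD1 was lost without the 3 h array (-1.08, adjusted p = 0.153) or the 0 h array (-0.99, adjusted p = 0.229), HSP90B1 without the 3 h or the 18 h array, and PDIA6 was called without the 0 h array. With median scaling 3 remained, HSPA5, DNAJB9 and XBP1. From 24 to 45 h 2 members fell, where 2.19% of all tested probes did. These were SDF2L1 at -0.77 (SE 0.20, adjusted p = 0.0351, limma) and CALR at -0.65 (SE 0.17, adjusted p = 0.0307), and PDIA6 was at -0.73 (SE 0.24, adjusted p = 0.0811). The late calls are fragile: leaving out the 24, 27, 30, 39 or 42 h array gave 0 calls, with 3 or 4 members at an unadjusted p under 0.05 in each case, and leaving out the 33 or 45 h array left CALR alone, while PDIA6 joined the calls without the 0 h array. Median scaling also gave 0, with 3 members at an unadjusted p under 0.05, although the changes themselves, -0.77 in SDF2L1 and -0.68 in CALR, hardly moved.

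The slope was less negative in the later than in the earlier batch in 5 members, where 12.7% of all tested probes showed that difference. The differences, later minus earlier, were 2.62 (SE 0.75, adjusted p = 0.0174) in DNAJB9, 2.21 (SE 0.76, adjusted p = 0.0426) in HERPUD1, 1.89 (SE 0.62, adjusted p = 0.0326) in XBP1, 1.89 (SE 0.52, adjusted p = 0.0151) in HSPA5 and 0.59 (SE 0.21, adjusted p = 0.0493) in PDIA4 (limma). The difference in SDF2L1 was -0.74 (adjusted p = 0.0662). HSPA5 was called with any single array left out, DNAJB9 in 15 of those 16 fits, XBP1 in 9, and HERPUD1 and PDIA4 in 3 each. Counts of 2 were found without the 0, 3, 15, 24, 27, 42 or 45 h array and of 3 without the 18, 30, 33, 36 or 39 h array. Without the 9 or 21 h array 6 members differed in either direction, as SDF2L1 was added with a more negative slope in the later batch. With median scaling DNAJB9 alone was called. Time and array batch overlap, so that a change of slope with time and one with the batch cannot be told apart by this test.

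**Figure D2:**
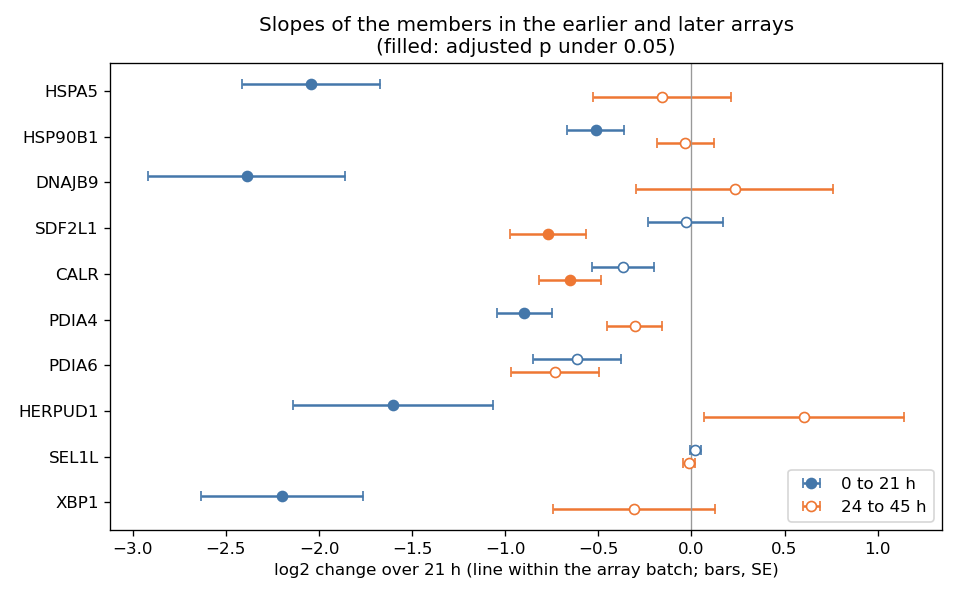
Log2 change of each member over 21 h from a line fitted within each array batch (horizontal axis), from 0 to 21 h in blue and from 24 to 45 h in orange, with bars for the SE and filled points for an adjusted p under 0.05. DNAJB9, XBP1, HSPA5 and HERPUD1 lie between -2.39 and -1.60 in the earlier arrays and between -0.31 and 0.60 in the later ones, whereas SDF2L1 and CALR are filled in the later arrays.

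The members differed in the shape of their course. Over the 12 arrays from 12 to 45 h, where the early drop plays no part, SDF2L1 correlated with CALR at r = 0.94 and with PDIA6 at 0.89, and CALR with PDIA6 at 0.83. DNAJB9 correlated with SDF2L1 at -0.92, with PDIA6 at -0.90 and with XBP1 at -0.80 over the same arrays. These are descriptions of 12 arrays that follow each other in time and share the same scaling, with no test. In values, DNAJB9 was 0.19 and HERPUD1 0.24 higher at 36 to 45 h than at 12 to 21 h, whereas XBP1 was lower, at -0.30, CALR at -0.48, PDIA6 at -0.63 and SDF2L1 at -0.68.

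The genes most like HSPA5 over the 16 arrays, out of 11564 others, were OKL38 and SC4MOL, a sterol demethylating enzyme, both at r = 0.976. They were followed by the zinc transporter SLC39A14 (0.973), KLHL21 (0.972), ID2 (0.971), the threonyl-tRNA synthetase TARS (0.970), FLJ13149 (0.970), the Notch target HEY1 (0.969) and HMFN0839 (0.967), as the table spells them. No member was among the 10 most alike. XBP1 ranked 47 (r = 0.951), PDIA4 148 (0.920), DNAJB9 447 (0.860) and HERPUD1 1379 (0.695). All points share the 0 and 3 h arrays, on which most of the range of HSPA5 rests.

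Other ER chaperones and foldases moved in the direction of the members, mostly by less. Of the 16 genes tested from a list of 20, 11 fell along the line and 0 rose. The median change over 45 h was -0.53, against -0.82 over the members and -0.00097 over all 11565 tested genes. Of all tested genes 1319 fell and 1544 rose. PPIB, an ER prolyl isomerase, fell most, at -1.11 over 45 h, followed by HYOU1 (GRP170), the exchange factor of HSPA5, at -0.76. The highest linear changes were those of SIL1 (0.28) and DNAJC10 (0.02), neither of which passed the test. Against the untreated array 8 were lower and 0 higher, among them CRELD2 (-0.64), CANX (-0.60) and MANF (ARMET in the table, -0.46). With median scaling the linear count was 3, where 511 of all 11565 tested genes fell, and the median was -0.14. This list, like the members, thus kept its direction but not its count.

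Genes of protein entry into the ER and of ER-associated degradation showed a mixed picture. Of 16 tested genes of the translocon and signal peptide processing, 8 fell and 1 rose, with a median of -0.36 that became -0.04 under median scaling. The signal peptidase subunit SEC11C (SEC11L3 in the table) fell at -1.49 and the channel subunit SEC61B at -1.33, whereas the related subunit SEC11A (SEC11L1) rose at 0.48 and SEC62 was at 0.07. Of 12 tested genes of ER-associated degradation 3 fell and 1 rose, with a median of -0.17. Under median scaling that median turned to 0.21, with 0 falling and 2 rising. Of all 11565 tested genes 1319 fell and 1544 rose, and with median scaling 511 fell and 2348 rose. The rises under median scaling are thus not read as a result about these genes. SELENOS (SELS in the table) at -0.70 and DERL2 at -0.47 were the largest falls, and OS9 was at 0.33 (adjusted p = 0.0618).

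Among the sensors and transcription factors, ATF4, DDIT3 and PPP1R15A were lower than in the untreated culture. ATF4 is driven by GCN2 as well as by PERK, so that these values do not tell the unfolded protein response from the amino acid response. Of 10 tested sensors and transcription factors 3 were lower in the treated arrays and 0 higher, where 1198 of all 11565 tested genes were lower. The counts of 3 and 0 were the same with median scaling. ATF4 was lower, at -0.71 (SE 0.17, adjusted p = 0.00859, limma), DDIT3 (CHOP), its proapoptotic target, at -1.67 (SE 0.20), and PPP1R15A (GADD34), the phosphatase subunit that reverses PERK signaling, at -1.26 (SE 0.26). DDIT3 went from 10.34 at 0 h to 8.98 at 3 h and had a mean of 8.71 ± 0.21 (SD, 12 arrays) from 12 to 45 h. PPP1R15A measured 12.95, 13.60, 12.16 and 11.69 from 0 to 9 h. The values of ERN1 (-0.03), EIF2AK3 (-0.08), ATF6 (0.35), ATF6B (0.03), MBTPS1 (0.09), CREB3 (-0.10) and CREB3L2 (0.01) did not pass this test, and ERN1 was detected on 9 arrays and EIF2AK3 on 15. Along the line MBTPS1, a protease that cleaves ATF6, rose at its brighter probe (0.53, against 0.07 at the other) and CREB3L2 fell (-0.53). With median scaling 2 of the 10 rose and 0 fell, where 2348 of all 11565 tested genes rose and 511 fell. With normexp from the signals alone 1 of the 10 rose and 0 fell, where 1574 of all tested genes rose and 1297 fell. These counts are not read as a result about the sensors.

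Most genes of the amino acid response were lower after inhibition. Of 30 tested genes 25 were lower than in the untreated array and 0 higher, with a median of -0.98 against -0.53 over the members. With median scaling the count was again 25. Of all 11565 tested genes 1198 were lower, and 807 with median scaling. Along the line 19 of 30 fell, with a median of -0.94 (16 and -0.59 with median scaling). PSAT1, of serine synthesis, fell most, at -4.27 over 45 h, and asparagine synthetase ASNS followed at -3.88. ASNS measured 13.66, 13.59, 13.26 and 12.86 from 0 to 9 h and had a mean of 10.40 ± 0.44 (SD, 12 arrays) from 12 to 45 h, so that most of its fall came after 9 h, with its largest step between 9 and 12 h. SLC38A2 (-0.03) and ATF5 (-0.05) had the highest linear changes of the list and did not pass the test.

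In step, the median of the 30 amino acid response genes relative to 0 h went through -0.38, -0.58 and -1.07 on the 6, 9 and 12 h arrays and lay from there to 45 h between -1.26 and -1.02. Every one of the 30 was below the untreated array from 12 to 33 h, where 5628 to 5848 of all 11565 tested genes were. The median of the 10 members went through -0.15, -0.33 and -0.50 on the 6, 9 and 12 h arrays and was lowest at 42 h (-1.01). All 10 were below the untreated array at 30, 33, 39, 42 and 45 h, where 5577 to 5654 of all 11565 tested genes were. SEL1L, near background, was below it by only 0.01 to 0.04 on these arrays. The largest step down was between 3 and 9 h in 5 of 10 members and in 18 of 30 amino acid response genes, against 2890 of all 11565 tested genes. From 0 to 21 h 27 of the 30 fell and from 24 to 45 h 2 did, against 6 and 2 of the 10 members. Both lists were read against the same 0 h array, and no test of the difference between them was made.

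**Figure D3:**
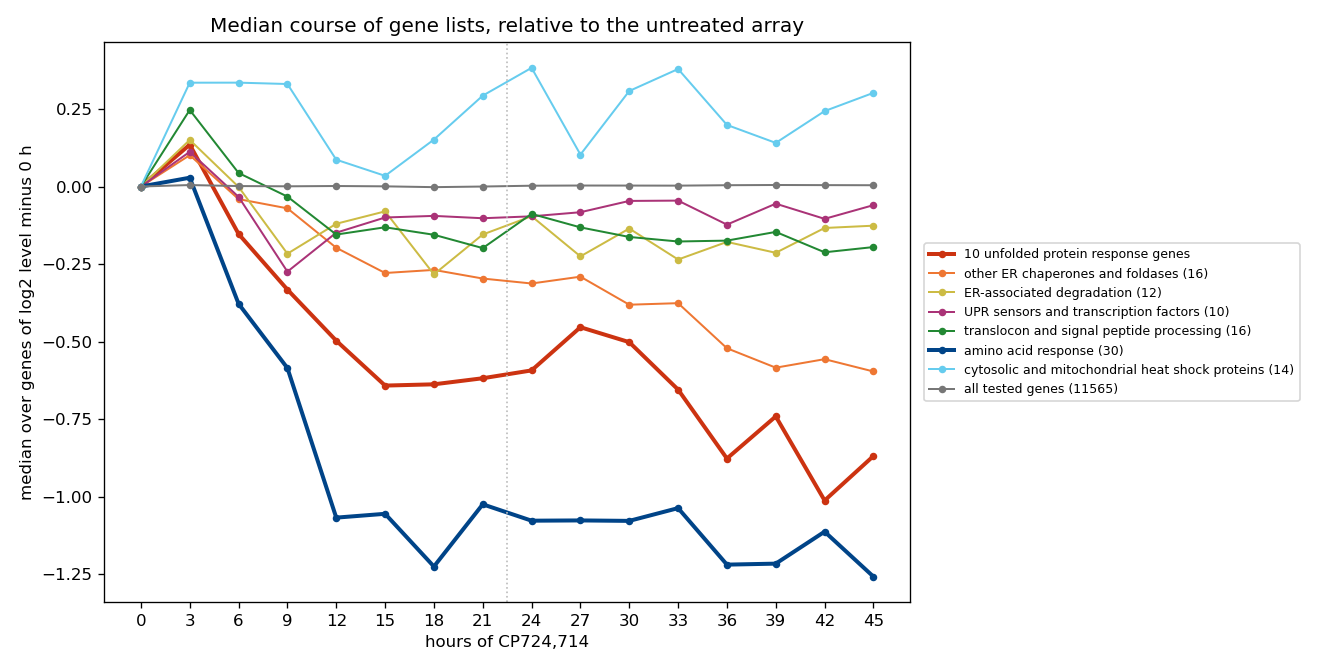
Median over the genes of each list of the log2 level minus that of the untreated array (vertical axis) against hours of CP724,714 (horizontal axis), with the number of tested genes in parentheses and a dotted line between the array batches. The amino acid response reaches -1.07 at 12 h and stays near it, the 10 unfolded protein response genes are at -0.50 at 12 h and -0.87 at 45 h, and the median of all tested genes stays at 0 because the arrays were quantile normalized.

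Cytosolic and mitochondrial heat shock proteins, which answer to HSF1 rather than to the ER sensors, were read beside them. Of 14 tested genes 5 were higher than in the untreated array and 1 lower, with a median of 0.30. Of all tested probes 8.62% were higher and 10.3% lower. The 1 lower gene was HSF1 itself, which the list also holds, at -0.14 (adjusted p = 0.00506, limma). HSF1 was detected on 14 arrays. With median scaling 1 was higher, 1 lower and the median was 0.15. HSPA8, the constitutive cytosolic HSP70, rose along the line by 0.57, where 12.9% of all tested probes rose, and the small heat shock protein HSPB1 by 0.47. The lowest linear changes were those of HSPA4, which fell, at -0.55, and BAG3, at -0.24, which did not pass the test. The fall of HSPA5 was thus not shared by all genes of the HSP70 family on the array.

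**Figure D4:**
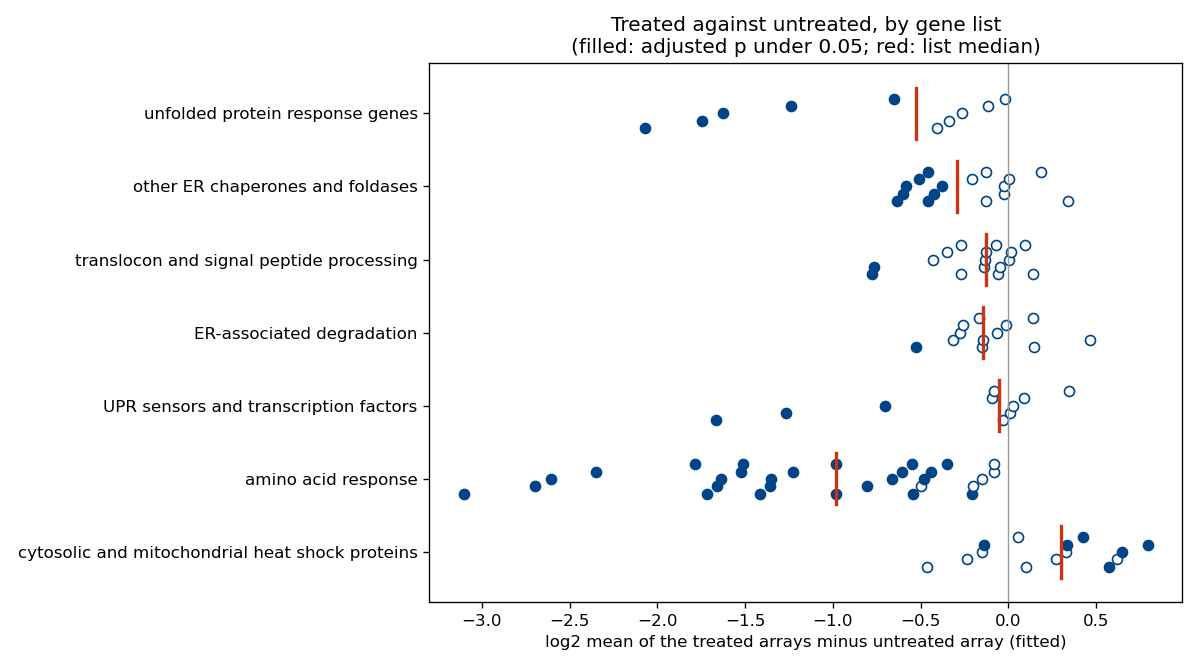
Fitted log2 mean of the 15 treated arrays minus the untreated array (horizontal axis) for each tested gene of the lists, with filled points for an adjusted p under 0.05 and a red bar for the median of the list. Of the unfolded protein response genes 5 are filled, from -2.07 to -0.65, and of the amino acid response genes 25. In the heat shock list 6 are filled, of which 5 lie above 0 and HSF1 lies below.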

How the data were processed

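RNA of 16 cultures, 1 per time point, was measured on Illumina Ref-8 arrays. The authors deposited, for each probe and array, an intensity not normalized between arrays and a detection p-value against the negative controls. The background was corrected and the arrays quantile normalized by the neqc function of limma 3.58.1 under R 4.3.3, with an offset of 16 that shrinks the log2 changes of dim probes. Of these steps the methods of the study name quantile normalization. A probe was tested if its detection p was below 0.05 on at least 3 arrays. Time dependence was tested with a natural cubic spline (4 degrees of freedom, moderated F), and direction with a line. The treated arrays were set against the untreated one with a centred spline (3 degrees of freedom) among them, and slopes were fitted within array batches. P-values were adjusted by Benjamini-Hochberg over 12321 probes, with 0.05 as the threshold.

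The members and lists were chosen with earlier results of these data known. Named genes are the members, the tested sensors and transcription factors, the 2 largest rises and falls of the linear fit in each other list, and the 10 genes most correlated with HSPA5; CRELD2, CANX, MANF and the markers were named beside these. Values of 3 genes that fall under these rules are not reported here. Promoter windows and newer symbols are from RefSeq (GRCh38.p14), whereas the build used for the array design is not given in the sources used here. Alternatives covered background correction, scaling, the detection filter, array weights, spline flexibility, the baseline and fold, left-out arrays and array blocks. The precision is limited by the number of arrays.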

Additional observations from a re-analysis of the deposited data

Results flagged for a closer look

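In 5 members the change over 21 h differed between the earlier and the later arrays by the test of the difference itself (adjusted p under 0.05, limma). The values, 24 to 45 h minus 0 to 21 h on the log2 scale, were 2.62 in DNAJB9, 2.21 in HERPUD1, 1.89 in XBP1, 1.89 in HSPA5 and 0.59 in PDIA4. The background of the arrays changed between the same time points, from 135.9 to 148.9 in the earlier to 164.5 to 173.9 in the later arrays, and its part in the differences was not tested.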

How the results depend on the processing

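The spread of a gene rests on 1 array per time point and on how well a curve follows it, and the dimmest member, SEL1L, was near background. The number of members below the untreated array was 5 in all 23 alternatives, each of which keeps the single untreated array, so that this says nothing of how far the count depends on it. The number of time-dependent members was 9 and stayed between 8 and 10 except with median scaling, which gave 5, and with the array batch as a block, which gave 7. The linear count of 7 became 3 with median scaling, 3 with the array batch as a block (where HSPA5, XBP1, HSP90B1 and SDF2L1 were lost at changes of -2.36, -2.69, -0.59 and -0.86), 4 in the 0 to 21 h arrays alone, 4 in the 24 to 45 h arrays alone and 0 with sets of 4 time points as a block, where 0 members had an unadjusted p under 0.05 (limma). The count of differing slopes, 5, became 1 with median scaling and 3 with no detection filter, and leaving out single arrays gave 2 to 6. The 1.7-fold count of 8 became 5 against each probe's median and 5 at 2-fold. The linear change turned positive in DNAJB9 (0.046) and HERPUD1 (0.28) with array weights, and, in alternatives chosen after seeing the data, without the 0 and 3 h arrays (0.33 and 0.78) and in the 12 to 45 h arrays alone (0.37 and 0.44). Why the scaling, the filter and the weights moved these values was not tested; the alternatives on fewer arrays leave out the early levels by construction. Each member has 1 probe, so that no other probe could be tried. No paired analysis was possible because there are no replicates.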
